A study of Mus musculus and Homo sapiens with 41 samples.

Results

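Properdin and 5 other genes of the complement system, Cfp, C3, C3ar1, C5ar1, Cd55 and Cd93, were described in 2 RNA-seq tables, one of granulocyte-monocyte progenitors (GMPs) with 53756 rows and one of the 416b cell line with 13238 genes. The 6 genes were chosen by name, and they were selected with the results of both tables already known, so their values in both comparisons are given as a description, with no test. All 6 were found in the GMP table, each on 1 row, and 5 of them in the 416b table, where C3 was not listed. The study asked how PLZF, the transcription factor encoded by Zbtb16, acts on enhancers and gene expression in myeloid progenitors, by loss in GMPs and by gain in 416b cells.

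GMPs (Lin-, c-Kit+, Sca-1-, Cd34+, FcγR+) had been sorted from the bone marrow of C57BL/6 background mice, after bone marrow of WT or Zbtb16lu/lu donors was used to reconstitute lethally irradiated Cd45-1 hosts. The lu mutation of Zbtb16 is germline, so every donor cell of the mutant graft carried it, and both genotypes had gone through the same regenerative stress. Each genotype had 2 libraries, and the study's methods describe the RNA-seq replicates of GMPs as independent RNA extractions, without saying whether these came from separate mice. 416b is a murine Cd34+ myeloid line. It was transduced with lentivirus carrying PLZF-Flag or the empty vector, GFP+ cells were sorted, and each condition had 1 library, so no test between these conditions was possible. GMP RNA was depleted of ribosomal RNA and 416b RNA was amplified, and the tables were normalized separately.

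Depth on the listed genes was 37562999 to 40170636 reads per GMP library, 54529257 for Empty vector and 19995591 for PLZF-Flag. Values are normalized counts, which are read counts divided by a size factor for each library. Zbtb16 itself stood at 705 and 828 normalized counts in WT replicates 1 and 2, at 269 and 369 in the mutant replicates 1 and 2, and at 382 in Empty vector and 2541 in PLZF-Flag. These levels went the way of the labels in every library. The GMP markers Kit, Cd34, Fcgr3, Mpo, Elane, Prtn3, Ctsg and Ms4a3 were all detected in the 4 GMP libraries, whereas in 416b cells Elane was not listed and Mpo had 12.1 and 3.30 normalized counts.

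Complement is a cascade of proteases that marks microbes and dying cells for uptake and lysis, and it is started by the classical, lectin or alternative pathway. All 3 pathways meet at C3, whose cleavage gives the opsonin C3b and the anaphylatoxin C3a. Properdin, encoded by Cfp, stabilizes the alternative pathway C3 convertase and is its positive regulator, and it is made by myeloid cells, where neutrophils store it in granules. C3ar1 and C5ar1 encode the receptors of C3a and C5a. Cd55 encodes decay-accelerating factor, a membrane protein that speeds the decay of C3 convertases, and Cd93 encodes a membrane glycoprotein once described as a receptor of C1q and used as a marker of early hematopoietic cells.

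By the GENCODE annotation of mouse build GRCm38 (mm10), Cfp spans chrX:20925454-20931555 with 9 merged exons, C3 spans chr17:57203970-57228136, and C3ar1 spans chr6:122847138-122856161. C5ar1 spans chr7:16246743-16259540, Cd55 spans chr1:130439027-130462744 and Cd93 spans chr2:148436640-148443563. All 6 genes lie on the minus strand. The promoter windows of Cfp, C3 and Cd55 are shown because the genotypes did not overlap for these members, which were also well above the filter on low values, and because Cfp and Cd55 differed in opposite directions. They run from 250 bases before to 50 bases after the RefSeq start, 5′ to 3′ on the minus strand of GRCm38, and cover chrX:20931506-20931805 for Cfp, chr17:57228087-57228386 for C3 and chr1:130462695-130462994 for Cd55. Capitals mark the motif matches described after the sequences.
Cfp: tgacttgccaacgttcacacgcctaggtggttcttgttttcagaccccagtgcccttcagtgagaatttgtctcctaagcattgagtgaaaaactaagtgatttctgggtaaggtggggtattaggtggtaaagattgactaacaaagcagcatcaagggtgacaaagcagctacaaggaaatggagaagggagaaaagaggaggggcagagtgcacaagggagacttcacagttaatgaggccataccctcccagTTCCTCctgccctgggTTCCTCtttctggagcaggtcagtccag
C3: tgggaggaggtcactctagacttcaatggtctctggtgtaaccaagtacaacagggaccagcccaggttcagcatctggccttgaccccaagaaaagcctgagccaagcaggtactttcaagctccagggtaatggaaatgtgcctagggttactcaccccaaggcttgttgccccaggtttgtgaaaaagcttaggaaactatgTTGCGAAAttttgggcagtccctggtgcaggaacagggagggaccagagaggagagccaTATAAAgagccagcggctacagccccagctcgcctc
Cd55: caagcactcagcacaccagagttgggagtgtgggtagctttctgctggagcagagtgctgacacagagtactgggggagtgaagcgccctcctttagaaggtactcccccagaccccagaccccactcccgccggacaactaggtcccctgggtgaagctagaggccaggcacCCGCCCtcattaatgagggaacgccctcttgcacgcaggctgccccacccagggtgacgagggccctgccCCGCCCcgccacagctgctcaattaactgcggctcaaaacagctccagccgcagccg

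RefSeq gave a window for 5 of the 6 members. Cd93 had none in the table used. Each window was searched on both strands for 6 motifs. These were the TATA box, searched as TATAAA, the C/EBP site, as TTGCNNAA, the PU.1 and ETS core, as GAGGAA, the site of the GATA factors, as AGATAA, the GC box, as GGGCGG, and the CCAAT box, under its own letters. The Cfp window held the PU.1 and ETS core on the opposite strand at 2 places, from positions 7 and 23 counted from 1 at the start, which are printed as TTCCTC, and no other motif of the 6. This core was in 28.3% of the 32851 promoter windows. The C3 window held TATAAA from position 15 and a C/EBP match, printed as TTGCGAAA, from position -45, and these motifs were in 13.6% and 10.8% of all windows. The Cd55 window held the GC box at -77 and -7, both printed as CCGCCC, a motif found in 35.7% of windows. In the windows not printed, C3ar1 held a TATA box and a GATA match that share bases, a further GATA match and a GC box, and C5ar1 held 1 CCAAT box. A match says only that these letters are in the window.

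In GMPs, the gap between the nearest mutant and WT libraries was wider for Cfp than for the other members (0.71 on the log2 scale), although the mean differences of C5ar1 and Cd55 were larger. It stood at 2338 and 2378 normalized counts in WT replicates 1 and 2 and at 4106 and 3892 in Zbtb16lu/lu replicates 1 and 2. Both mutant libraries lay above both WT libraries, and the libraries within a genotype were close to each other. The WT mean of 2358 ± 28.7 (SD, n = 2) and the mutant mean of 3999 ± 151 (SD, n = 2) gave a ratio of 1.70. On the scale of log2(normalized count + 1), used for all GMP differences, Zbtb16lu/lu minus WT was 0.76 (limma standard error 0.11). WT replicate 1 and Zbtb16lu/lu replicate 2 share a date code in the deposited column names, and between these libraries the log2 difference was 0.74, against 0.79 between the other pair. When GC content and length were modelled as offsets, it was 0.58. Of the 13863 tested genes that averaged 100 or more normalized counts, 219 were higher in the mutant by as much or more.

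C3, the central component, was the member with the most reads after Cd93. It stood at 10021 and 11296 normalized counts in WT and at 12788 and 12038 in Zbtb16lu/lu. The mutant libraries were again above the WT libraries, by a narrow margin. The means were 10658.5 ± 901 (SD, n = 2) and 12413 ± 530.4 (SD, n = 2), a log2 difference of 0.22 (standard error 0.12), and 0.10 with the GC and length offsets. The microRNA gene Mir6978 lies within C3 on the same strand, and how reads on both were assigned is not given in the sources used here.

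Among the receptors, Cd93 had 17249.5 and 25468 normalized counts in WT and 25315 and 24786 in Zbtb16lu/lu. The genotypes overlapped, since WT replicate 2 was the highest library and WT replicate 1 the lowest. The log2 difference was 0.26 (standard error 0.17), and it was -0.02 without WT replicate 1. C5ar1 was near the limit of detection, with 10 and 1 reads in WT and 16 and 14 reads in Zbtb16lu/lu. Its normalized counts were 9.94 and 0.964 in WT, against 16.1 and 14.4 in the mutant. The mutant libraries were higher, but the log2 difference of 1.81 had a standard error of 0.95 and was 0.49 between the libraries that share a date code and 3.12 between the other pair. C3ar1 had 1 and 9 reads in WT and 5 and 4 reads in Zbtb16lu/lu, and the genotypes overlapped.

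Cd55, the only inhibitor among the 6, was lower in the mutant. It stood at 74.6 and 113 normalized counts in WT and at 51.2 and 40.1 in Zbtb16lu/lu, from 39 to 117 reads per library. The groups did not overlap, with WT replicate 2 highest and Zbtb16lu/lu replicate 2 lowest. The log2 difference was -1.0 (standard error 0.36), with -0.88 between the libraries that share a date code and -1.13 between the other pair. The antisense gene Gm16083 covers the first 169 bases of Cd55, and it had 0.994 to 2.06 normalized counts per library. Cd55b, a neighbouring copy of similar sequence, had 1.00 to 5.79 normalized counts, and reads shared between the copies could have been lost or split.

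Over the 6 members, 3 (Cfp, C3 and C5ar1) had both mutant libraries above the WT libraries, 1 (Cd55) had them below, and 2 (Cd93 and C3ar1) overlapped. Of all 20531 tested genes, 21.7% were higher without overlap and 22.1% lower, and the members were selected on this comparison, so nothing is read from their count. Of the 6 members, 5 passed the filter of at least 10 normalized counts in at least 2 libraries. C3ar1 failed it, and C5ar1 passed only through the Zbtb16lu/lu libraries. In bulk RNA, a different share of cells that express a gene and a different level per cell cannot be told apart.

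**Figure D1:**
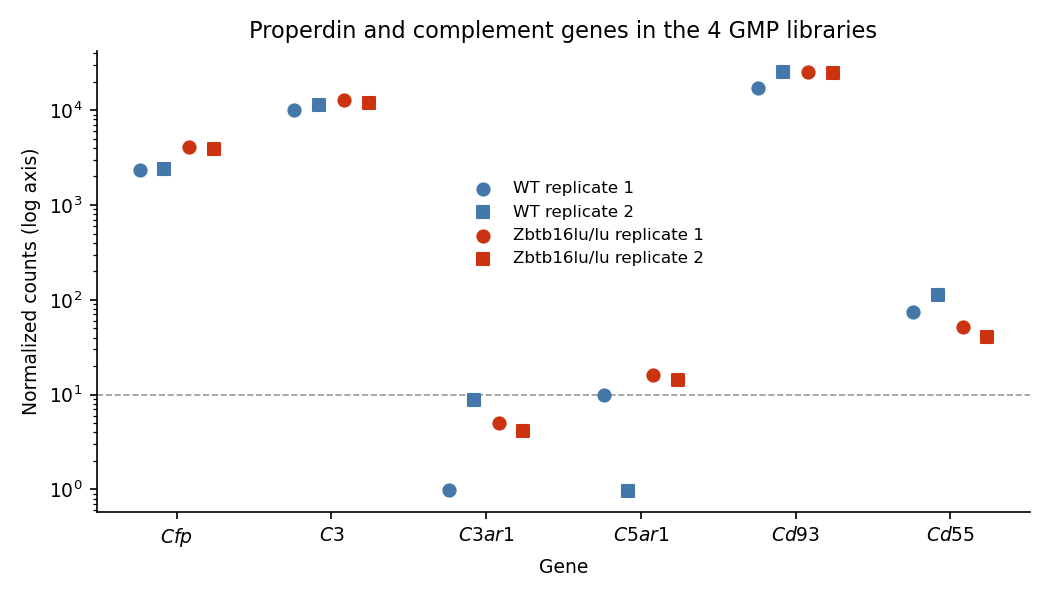
Normalized counts (log axis) of the 6 members in each of the 4 GMP libraries, with WT in blue and Zbtb16lu/lu in red and a dashed line at the filter of 10. Cfp stands at 2338 and 2378 in WT and at 4106 and 3892 in Zbtb16lu/lu, Cd55 is lower in both mutant libraries, and C3ar1 and C5ar1 lie near or below the filter.

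Marker lists of other myeloid cells differed between the same libraries. For comparison, 21.7% of all 20531 tested genes were higher in the mutant without overlap and 22.1% lower. All 14 markers of maturing and mature neutrophils were tested, and 9 were higher in both Zbtb16lu/lu libraries, with 0 lower. Their summed level was 16538.5 and 8083 normalized counts in WT and 24117.5 and 13029 in Zbtb16lu/lu, so that the sums of the genotypes overlapped. Most of each sum came from S100a8 and S100a9, which overlapped between genotypes, whereas Ltf, a secondary granule gene, stood at 56.7 and 11.6 in WT and at 846 and 305 in the mutant. Of the monocyte and macrophage markers, 10 of 11 were tested and 9 were higher, with 0 lower, and the sums were 75160.3 and 89322 in WT, against 107794 and 101810 in the mutant. The median log2 difference was 1.37 for the neutrophil list and 0.41 for the monocyte list, against -0.01 over all tested genes. Of the 8 GMP markers, 3 were higher (Mpo, Elane and Prtn3), 1 was lower (Ms4a3) and the others overlapped. Their sum, most of it Mpo, was 764989 to 772499 in WT and 864056 to 879124 in Zbtb16lu/lu. No marker of these 3 lists was at 0 in all 4 libraries. Lists of stem and multipotent progenitors, erythroid cells, megakaryocytes, mast cells and basophils, B cells, T and NK cells, dendritic cells and endothelial cells had 0 tested markers higher without overlap, and the mast cell and basophil list had 2 lower. Of the 4 B cell markers 0 passed the filter, and of the 4 T and NK cell markers 1 did. Below the filter, Cd79a and Ebf1 of the B cell list and Klrb1c of the T and NK cell list were higher without overlap, at up to 7.03, 9.03 and 13.4 normalized counts, and Ms4a1 was lower. The part of these cells in the levels of Cfp, C3 and Cd55 was not tested.

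**Figure D2:**
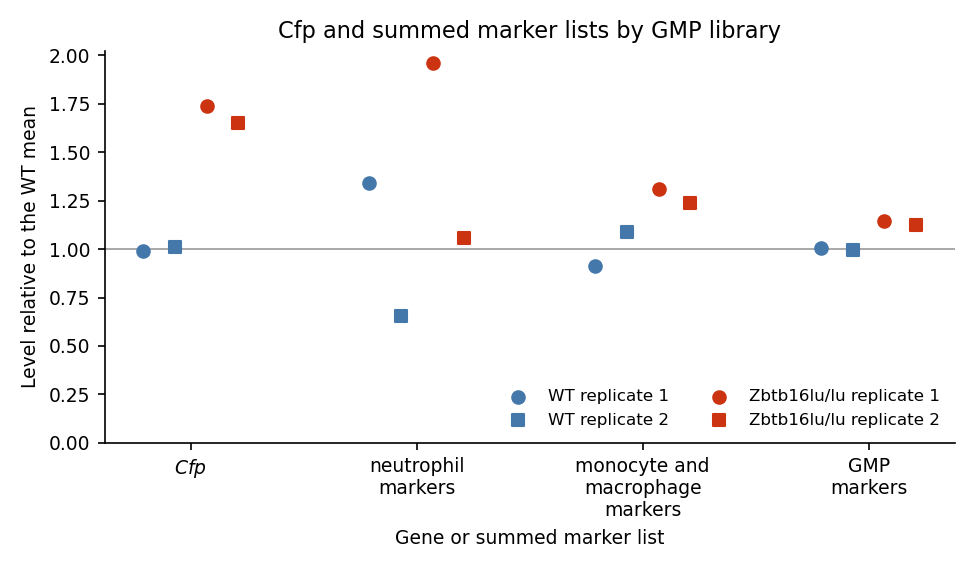
Level of Cfp and of 3 summed marker lists in each GMP library, relative to the mean of the WT libraries (linear axis from 0). The WT points of Cfp lie together at the line of 1 with both mutant points well above it, while the neutrophil sums, most of them S100a8 and S100a9, spread widely within each genotype (16538.5 and 8083 in WT, 24117.5 and 13029 in Zbtb16lu/lu).

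The 5 genes whose profile over the 4 GMP libraries was nearest to that of Cfp, by Euclidean distance of centred log2 values among tested genes that averaged 100 or more, were Dmc1 (distance 0.03), Smox (0.04), Zfp219 (0.05), Matk (0.05) and Guca1a (0.08). Dmc1 encodes a meiotic recombinase, Smox spermine oxidase and Matk a Csk-related kinase. With only 4 libraries such likeness is a description of levels, and none of the 5 belongs to the complement list.

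Levels of different genes were compared as normalized counts per kb of merged exons. In WT GMPs the order was Cd93 (2583 and 3814 per kb in replicates 1 and 2), C3 (1949 and 2196), Cfp (1347 and 1370.01), Cd55 (15.4 and 23.3), C5ar1 (3.87 and 0.375) and C3ar1 (0.231 and 2.02). Cd93, C3 and Cfp each lay above the next gene in both libraries, and C5ar1 and C3ar1 overlapped. In Zbtb16lu/lu GMPs C3 (2486 and 2341 per kb in replicates 1 and 2) lay above Cfp (2365 and 2242) within each library, by a narrow margin. Per kb of coding sequence Cfp (2949.5 and 2796) stood above C3 (2563 and 2413), so their order in the mutant depended on the length used. Cfp per kb was above 88.8% of tested genes in WT GMPs, C3 above 92.7% and Cd93 above 95.2%, while C5ar1 was above 1.59% and C3ar1 above 0.517%. C3 per kb was 1.53 times Cfp in WT GMPs, and 1.26 times by coding length.

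In Empty vector 416b cells, Cfp (877 per kb of merged exons) and Cd93 (869) came first, followed by Cd55 (268), C3ar1 (73.5) and C5ar1 (2.35). In PLZF-Flag, Cfp was at 414 per kb, Cd93 at 873 and Cd55 at 318. The order of these 3 genes depended on the length used. Per kb of coding sequence, Cd93 (3004) stood above Cfp (1094) and Cd55 (879.9) in Empty vector, and in PLZF-Flag Cd55 (1044) stood above Cfp (516). C3ar1, with 1 to 9 reads in GMPs, had 523 and 166 reads in the 416b libraries, whereas C3, with 10021 or more normalized counts in every GMP library, was not listed. The 416b table lists genes with at least 1 read in both libraries, so C3 may have had reads in one of them. These levels are set side by side across separate normalizations and library kits, and the difference between the cells was not tested.

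**Figure D3:**
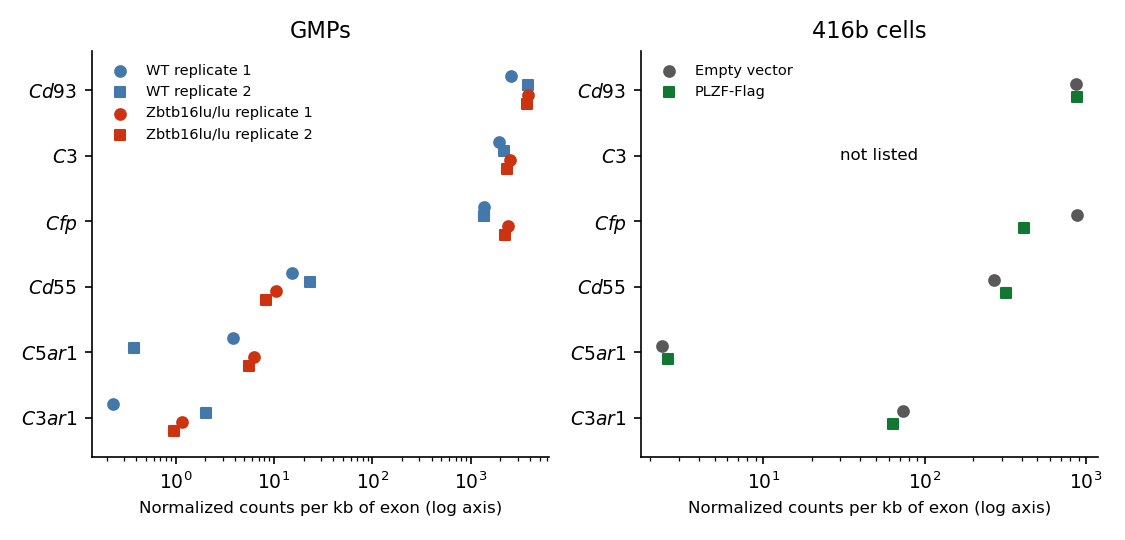
Normalized counts per kb of merged exons (log axis) for the 6 members in the 4 GMP libraries (left) and the 2 libraries of 416b cells (right), in the order of their WT GMP level. On this scale, though not by coding length, C3 lies slightly above Cfp within each Zbtb16lu/lu library. C3ar1 is at 2.02 per kb or lower in GMPs but stands at 63.7 to 73.5 per kb in 416b cells, and C3 was not listed there.

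In 416b cells with gained PLZF, Cfp had the largest difference of the 5 listed members. Empty vector cells gave 2516 reads of Cfp and PLZF-Flag cells 435, or 1523 and 719 normalized counts, 2.12 times more in Empty vector. The log2 ratio, PLZF-Flag over Empty vector, was -1.08 (95% exact Clopper-Pearson interval -1.23 to -0.94). Intervals here come from the reads of both libraries and cover counting error only. The ratio was as low or lower for 91 of the 11836 genes that averaged 10 or more normalized counts.

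The other members differed less between the 416b libraries. Cd55 had 2149 and 934 reads, or 1301 and 1543 normalized counts, a log2 ratio of 0.25 (interval 0.13 to 0.36). C3ar1 had 317 and 274 normalized counts, and its ratio of -0.21 had an interval that included 0 (-0.47 to 0.05). Cd93 stood at 5803 and 5830 normalized counts, and its ratio of 0.01 had a narrow interval (-0.05 to 0.06). C5ar1 had 10 and 4 reads and an interval of -2.00 to 1.92, so a difference was not detectable at this depth. At or beyond 0.5 on the log2 scale, 2.18% of the 11836 genes were higher in PLZF-Flag and 4.06% were lower, and of the 5 listed members Cfp was lower. Of the 14 neutrophil markers, 5 were listed in 416b cells and 4 averaged 10 or more normalized counts. Of these 4, 0 were at -0.5 or lower and 1 (Cd177, from 7.87 to 21.5 normalized counts) was at 0.5 or higher. Of the 5 monocyte and macrophage markers with such an average, 1 was at -0.5 or lower (Ccr2, from 144 to 81.0 normalized counts) and 0 were at 0.5 or higher. Among the neutrophil markers higher without overlap in mutant GMPs, only Mmp9 and Cd177 were listed in 416b cells. The others, such as Ltf, could not be assessed there.

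Cfp thus had a higher level with the mutation and a lower level with gained PLZF, and Cd55 the reverse. Cfp was chosen with both values known. To place it, genes were counted that were higher in Zbtb16lu/lu by at least 0.5 without overlap and had a 416b ratio of -0.5 or lower, a rule set after the values of Cfp were seen. Of the 11242 genes in both tables that passed both filters, 76 met it (0.676%). These 76 were 14.0% of the 542 genes higher in the mutant and 19.6% of the 387 genes lower in PLZF-Flag, and among genes outside the first list 2.91% were lower in PLZF-Flag. The 76 include 11 histone genes of the 57 in both tables, and Rpph1 and Rmrp, the RNA components of RNase P and RNase MRP, which stood at 64531 and 35796 normalized counts on average in WT and at 153852 and 71783 in the mutant. Most histone mRNAs and these 2 RNAs lack a poly(A) tail, and the part of RNA or library differences in the level of Cfp was not tested. The reverse pattern, lower in the mutant by at least 0.5 without overlap and 0.5 or higher in 416b cells, was met by 11 genes (0.0978%), and Cd55 and Clu, at 0.25 and 0.31 in 416b cells, were not among them.

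**Figure D4:**
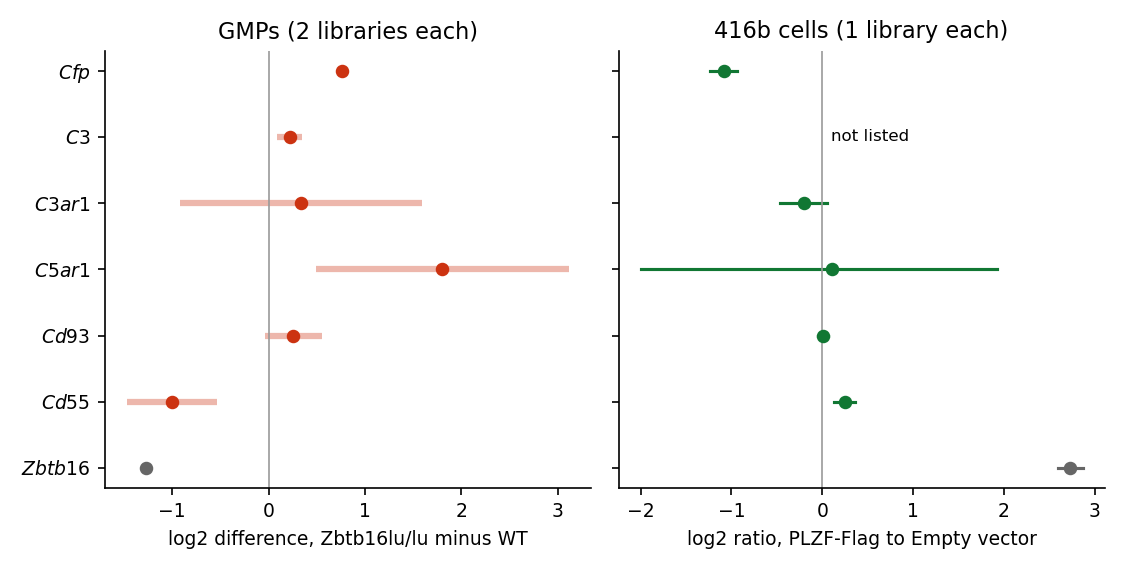
Log2 difference of Zbtb16lu/lu minus WT in GMPs (left, points are means and thick bars run from the smallest to the largest difference between a mutant and a WT library) and log2 ratio of PLZF-Flag over Empty vector in 416b cells (right, bars are 95% counting intervals), with Zbtb16 in grey. Cfp lies at 0.76 on the left and -1.08 on the right, Cd55 at -1.0 and 0.25, and C3 was not listed in 416b cells.

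The other 47 genes of the complement list, which leaves out the 6 members, were tested with the rest of the genes. Of these, 21 passed the filter, and 23 had under 10 normalized counts in every GMP library, including 4 with no read in any of them. The others reached 10 in too few libraries to pass. Among the 21 genes, 2 were higher (Itgb2 and Fcnb) and 1 was lower (Clu) at an unadjusted p under 0.05 in limma, where 5.5% of all tested genes were higher and 4.37% lower. In limma, no gene of the list passed an adjusted p of 0.08, the threshold of the study. It called 0% of the 20531 genes, 2028 of which had an unadjusted p under 0.05. edgeR on the recovered reads also called 0 genes (2008 at an unadjusted p under 0.05), and DESeq2 called 1.02% of 14958 genes higher and 0.388% lower, with 1 gene of the list, Itgb2, among them. The median log2 difference of the 21 genes was 0.14, against -0.01 over all tested genes.

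Among the receptors, Itgb2, the beta chain of complement receptors 3 and 4, had 1452 and 1711 normalized counts in WT and 2465 and 2126 in Zbtb16lu/lu. The groups did not overlap, and the log2 difference was 0.54 (standard error 0.14, limma adjusted p = 0.379). The adjusted p of Itgb2 ran from 0.267 to 0.624 over the limma and edgeR alternatives with all libraries and was 0.0794 in DESeq2. Itgam, the alpha chain of complement receptor 3, overlapped between genotypes (0.21, standard error 0.18). Its symbol is on 2 rows, and the row with more reads was used. C5ar2, a second C5a receptor, had 47.7 and 22.2 normalized counts in WT and 58.2 and 51.4 in Zbtb16lu/lu, a log2 difference of 0.73 (standard error 0.46).

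Of the recognition molecules and proteases, Fcnb, a ficolin of the lectin pathway made by myeloid cells, had 1628 and 1223 normalized counts in WT and 2192 and 1965 in Zbtb16lu/lu. Its log2 difference was 0.56 (standard error 0.16, limma adjusted p = 0.422), with 0.27 between the libraries that share a date code and 0.84 between the other pair. The protease genes C1ra (-0.16), C2 (0.01), Masp2 (-0.10) and Cfb (-0.14), and C8g (0.14), which encodes a chain of the terminal component C8, had log2 differences smaller than their standard errors. The remaining terminal components, including Hc, which encodes C5, had at most 7.72 normalized counts in any library.

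Among the regulators, Clu, which encodes clusterin, an inhibitor of the terminal complex, had 217 and 175 normalized counts in WT and 105 and 76.1 in Zbtb16lu/lu. Its log2 difference was -1.11 (standard error 0.28, limma adjusted p = 0.370), with -1.50 between the libraries that share a date code and -0.72 between the other pair. Cr1l, which encodes the rodent convertase regulator Crry, was the regulator with the most reads, at 2760.4 to 3131 normalized counts, and its difference was -0.09 (standard error 0.12). Cd59a, an inhibitor of the membrane attack complex, overlapped between genotypes.

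**Figure D5:**
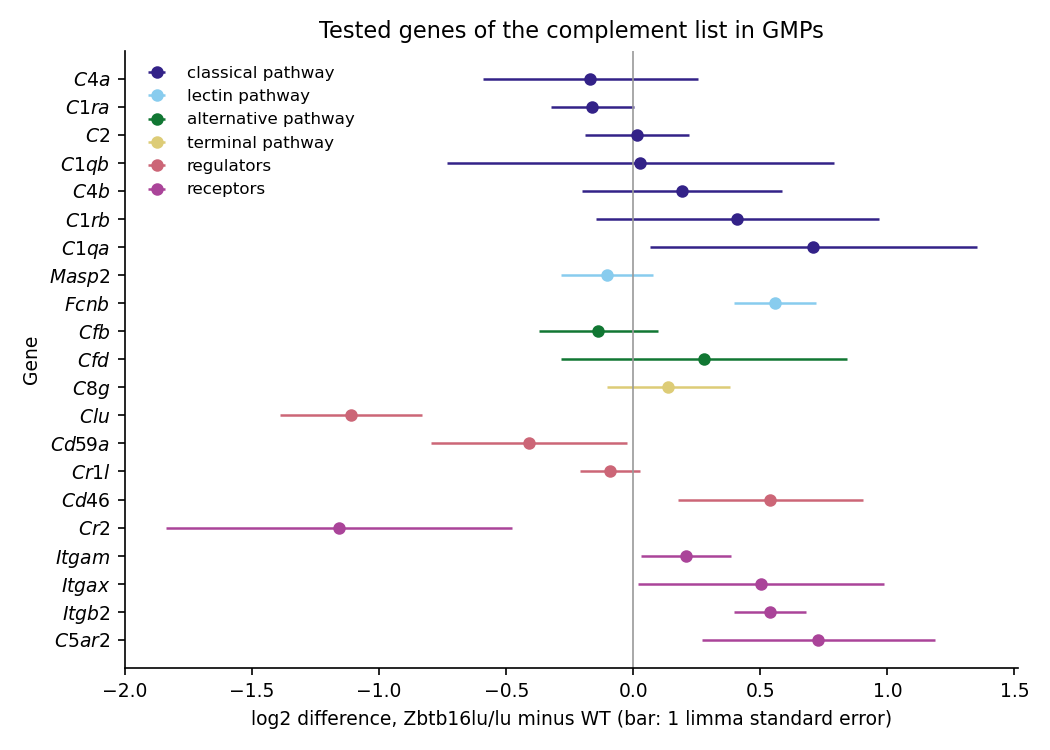
Log2 difference of Zbtb16lu/lu minus WT for the 21 tested genes of the complement list, grouped and coloured by role, with bars of 1 limma standard error. Itgb2 (0.54), Fcnb (0.56) and Clu (-1.11) lie farthest from 0 for their error, and each role with more than 1 tested gene has points on both sides of 0.

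In 416b cells 16 of the 47 genes were listed and 10 averaged 10 or more normalized counts. Of these 10, 2 were lower in PLZF-Flag by at least 0.5 on the log2 scale and 0 were higher, where 4.06% and 2.18% of the 11836 genes were. The lower genes were Itgam, from 6023 to 4081 normalized counts (-0.56, interval -0.63 to -0.50), and Masp2, from 189 to 109 (-0.79, interval -1.20 to -0.40). Itgb2 (0.07) and Cr1l (-0.05) had intervals that included 0, as did Cd59a (0.05) and Cd55b (0.20). Clu was higher in PLZF-Flag (0.31, interval 0.22 to 0.39), as was Itgax (0.37, interval 0.13 to 0.61). Clu, like Cd55, was lower in the mutant libraries and higher in PLZF-Flag. limma did not call it in GMPs, and the 416b libraries allow no test. The median ratio of the 10 genes was 0.0019, against -0.00014 over the 11836 genes.

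Because Cfp is X-linked, transcripts that differ by sex were looked at. Xist had 13.05 to 32.8 normalized counts in the 4 GMP libraries, and the Y-linked genes Ddx3y, Eif2s3y, Kdm5d and Uty had 984 to 3400 in each. Y-linked transcripts were thus present in every library. Eif2s3y was lower in both mutant libraries, at 2175 and 2468 in WT and at 2015 and 1607 in Zbtb16lu/lu. Xist and the other Y-linked genes overlapped between genotypes.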

How the data were processed

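RNA-seq was analysed for 2 WT and 2 Zbtb16lu/lu GMP libraries and for 1 Empty vector and 1 PLZF-Flag 416b library. ChIP-seq and ATAC-seq data were not used. Per the labels and methods, the authors aligned the reads to mm10 with Subread, obtained gene counts from featureCounts 1.5.0 and scaled every library by its DESeq2 size factor. The deposited signal values are therefore normalized counts. The authors' columns of means, log2 values, fold changes and p-values were not used, and 0 columns of samples were left unmatched. Whether counting used strand is not given in the sources used here.

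Whole reads were recovered in 100% of the GMP values and in 84.8% and 85.5% of the Empty vector and PLZF-Flag values (within 0.01 of a read). GMP values were tested with limma-trend (limma 3.58.1) on log2(value + 1), for 20531 rows with at least 10 normalized counts in at least 2 libraries, with Benjamini-Hochberg adjustment and the study's threshold of 0.08. The study's methods count independent RNA extractions as the biological replicates of GMP RNA-seq, more of them than the 2 libraries per genotype analysed here, and do not tie them to separate mice, so p-values measure the spread between these libraries. In 416b cells, log2 ratios of (value + 1) have 95% Clopper-Pearson intervals from the recovered reads. With 1 library per condition there is no test.

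The members and the gene lists were chosen with earlier results of these data known. The genes named are the 6 members, every complement list gene averaging 100 or more normalized counts in either table, Zbtb16 and the 5 genes nearest to Cfp. Others (C5ar2, Hc, Mir6978, Gm16083, Rpph1, Rmrp, the sex-linked genes and single genes of the marker lists) were named after their values were seen. Pseudocounts of 0.1 and 10, omission of the filter, a stricter filter (mean of 100 or more), equal library totals, quantile normalization, GC and length offsets, no intensity trend, a threshold of 0.05, leaving out each library, the libraries that share a date code, edgeR 4.0.16 and DESeq2 1.42.0 on recovered reads, and coding length were tried as alternatives. edgeR with TMM scaling in GMPs and the other row of Itgam were chosen after seeing the data. R 4.3.3 and Python 3.11.15 were used, with pandas 2.3.3, scipy 1.17.1 and numpy 2.4.6. Gene positions and lengths are from GENCODE M21 and promoters from RefSeq (GRCm38.p6).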

Additional observations from a re-analysis of the deposited data

How the results depend on the processing

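The log2 difference of Cfp in GMPs kept its direction under all 16 alternatives, from 0.58 to 0.80, and 0.58 was the value with GC and length offsets. Leaving out 1 library gave 0.72 to 0.80, and the lone library left was then assumed to vary like the others. Over the alternatives that gave a value, C3 ran from 0.10 to 0.31 and Cd55 from -1.30 to -0.71, C5ar1 ran from 0.49 to 3.04, and Cd93, from -0.02 to 0.54, turned its sign without WT replicate 1. The ratio of Cfp in 416b cells ran from -1.08 to -1.07. C3 over Cfp per kb in WT GMPs was 1.53, and 1.26 by coding length.

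Depth limits C3ar1 and C5ar1 in GMPs, and 2 libraries per genotype limit every adjusted p. The number of genes called was 0 in limma, in its alternatives with all libraries and in edgeR with either scaling, and 210 in DESeq2 (152 higher). Leaving out 1 library gave 1 to 4662 genes, the most without WT replicate 1 (4662) and WT replicate 2 (2749), where the spread came from the Zbtb16lu/lu libraries alone, and 64 and 1 without Zbtb16lu/lu replicates 2 and 1. For the complement list, calls were 0 in limma and 1 in DESeq2, and 0 to 7 when 1 library was left out. The complement list had 3 genes at an unadjusted p under 0.05, 5 with no filter, and 1 to 7 when 1 library was left out. Past 0.5 in 416b cells, 2 list genes became 3 with a pseudocount of 0.1, equal library totals or edgeR TMM scaling, when Cfb, at -0.50, crossed the line. No paired analysis was possible because library columns carry no replicate numbers and a single pair of libraries shares a date code.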
